A study of Danio rerio with 72 samples.

Results

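Genes made by blood cells or by the yolk syncytial layer and liver are described here array by array in dissected zebrafish tail tissue. The 7 genes were taken by annotated symbol, and were chosen with earlier results of these data known. They are cahz, epb41b and hbbe3 for blood and tfa, apoa1a, fabp1b.1 and afp4 for yolk. Each was measured by 1 probe set, so 7 of the 15502 probe sets other than controls were followed. A further 2 probe sets list tfa among several symbols and were not used.

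The tissue was posterior presomitic mesoderm (PSM), the unsegmented mesoderm of the tail bud from which somites form, cut by hand from embryos at the 12-somite stage raised at 24 °C. RNA was amplified and hybridised to 72 arrays in 19 groups, to find genes that answer to retinoic acid (RA), Fgf, Wnt and Notch signalling. Groups held 4 arrays each, apart from 3 arrays for RA at 3 h, 3 for DAPT at 1.5 h and 2 for DAPT at 3 h. The labels call the arrays biological replicates without saying whether they came from separate clutches, so the p-values measure the spread between these arrays.

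Wild-type AB embryos received RA, the Notch-pathway inhibitor DAPT, or only the solvent DMSO. Exposure lasted 1.5 h or 3 h, and each drug had its own DMSO groups. Heat shock at 37 °C for 30 min was given to wild-type AB embryos and to the line Tg(hsp701;dnfgfr1-EGFP), with dissection 30 min or 1 h later. Tg(hsp:70:DeltaTcF-gfp), Tg(hsp:70:wnt8a-gfp) and Tg(hsp:70:dkk1-gfp) embryos had the same shock and were dissected after 1 h. Heat shock for 1 h was given to Tg(hsp70;gal4VP16) embryos and to embryos from their cross with Tg(UAS:myc-notch1a-intra), with dissection after 45 or 90 min. These groups are called gal4 and notch1a-intra. The transgenes sit behind a heat-inducible promoter, which acts throughout the embryo and not in the PSM alone, and the notch1a-intra transgene depends on gal4VP16, which its controls carry too.

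Primitive red cells of the zebrafish arise in mesoderm beside the PSM and make embryonic globins, heme enzymes and membrane skeleton proteins before circulation begins. The yolk syncytial layer is a layer of nuclei and cytoplasm on the surface of the yolk cell, beneath the embryo. It packages yolk lipid into lipoproteins and secretes plasma proteins that the liver makes later in life. These products are not typical of PSM cells, and both tissues lie next to the PSM when it is cut out.

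The tissue label and the transgene labels were checked on the same arrays. Of 12 PSM markers 11 were named on the array, and msgn1, tbx16, tbx16l, tbx6, tbxta, her1, her7, dlc, dld and hes6 exceeded the median signal of the array on 72 of 72 arrays. The PSM gene fgf8a did so on 60. The dkk1b signal was 12.70 to 12.91 on the log2 scale in the arrays labelled DeltaTcf and 12.97 to 13.13 in those labelled dkk1, against 4.73 to 5.93 in the wild type at 1 h, so the DeltaTcf label is in doubt. In the arrays labelled notch1a-intra at 45 min, notch1a was at 11.64 and 11.83 in replicates 1 and 3 and at 8.0 and 8.29 in replicates 2 and 4, against 7.20 to 8.46 in gal4.

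The deposited MAS5 signal is a linear intensity, scaled to the same trimmed mean of 150 on every array, and array medians ran from 23.7 to 50.3. No detection call accompanies the values, so a signal above its array's median was used as a mark of clear signal. Tests used log2(signal + 16) after quantile normalization, where a signal of 0 would read 4. Fold changes are on that scale and understate the changes of dim genes. A probe set was tested if it exceeded the array median on at least 3 arrays, and all 7 genes passed.

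The blood and yolk genes were dim on most arrays and clearly raised on a few. None of the 7 exceeded the array median on 36 arrays, and 1 did on 22, which was hbbe3 on 18 of them. At least 2 exceeded it on 14 arrays from 8 of the 19 groups. Of these 14 arrays, 4 had 2 or more of the 3 blood genes without 2 of the 4 yolk genes, 6 had 2 or more yolk genes without 2 blood genes, 3 had both, and 1 had 1 gene of each kind. No gene of the 7 exceeded the median on any array of DeltaTcf, wnt8a, dkk1 or RA at 3 h.

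**Figure D1:**
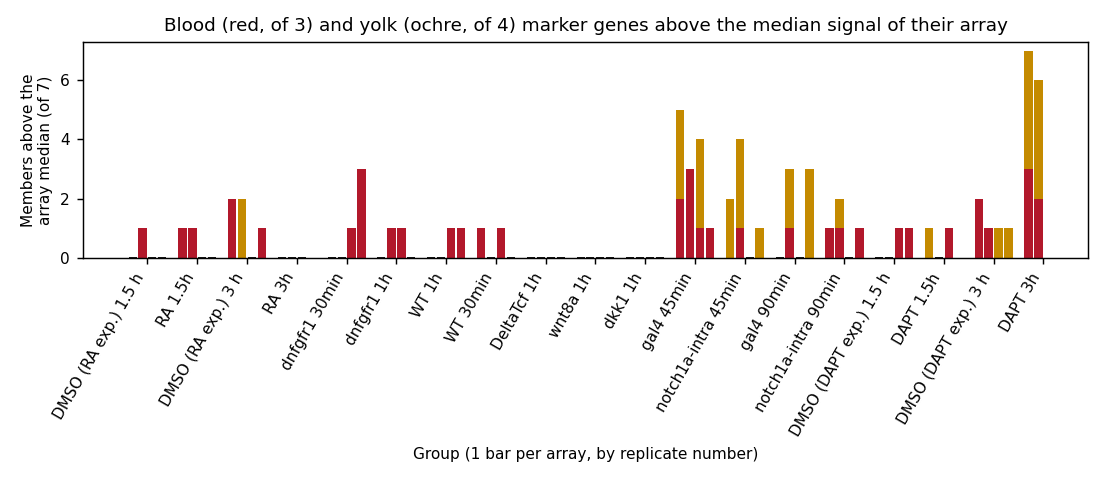
Number of the 3 blood genes (red) and 4 yolk genes (ochre) whose signal exceeded the median signal of the same array, 1 bar per array, by group and replicate number. The 2 arrays of DAPT at 3 h reach 7 and 6, gal4 at 45 min reaches 5 on replicate 1, and DeltaTcf, wnt8a, dkk1 and RA at 3 h stay at 0.

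On 2 arrays all 3 blood genes and none of the 4 yolk genes exceeded the array median. On dnfgfr1 at 30 min replicate 4 the signals were 49.3 for cahz, 37.6 for epb41b and 536 for hbbe3, while afp4 was at 3.89 and fabp1b.1 at 5.14. There tfa, at 15.3, and apoa1a, at 19.3, lay above their own medians over the 72 arrays, 14.35 and 12.98. The other 3 arrays of that group had cahz at 0.877 to 5.31 and hbbe3 at 1.94 to 76.9. On gal4 at 45 min replicate 2 the signals were 83.1 for cahz, 33.7 for epb41b and 274 for hbbe3, with tfa at 6.99, apoa1a at 4.30, fabp1b.1 at 1.13 and afp4 at 3.00. Both arrays thus stood high for all 3 blood genes and below the array median for all 4 yolk genes.

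Yolk genes stood high with little blood signal on other arrays. On gal4 at 90 min replicate 4 the signals were 53.4 for tfa, 60.4 for apoa1a and 52.6 for afp4, with hbbe3 at 2.20. The second replicate of DMSO in the RA experiment at 3 h had tfa at 55.8 and afp4 at 30.4 with hbbe3 at 2.16. On gal4 at 45 min replicate 3, tfa was at 42.3, apoa1a at 43.1 and afp4 at 37.6, while cahz was at 4.86 and hbbe3, at 39.6, exceeded the array median of 32.5. Arrays of 1 group therefore differed in kind as well as in amount. Within gal4 at 45 min, replicate 1 carried both kinds (cahz 38.6 and apoa1a 53.1), replicate 2 all 3 blood genes, and replicate 3 hbbe3 with 3 yolk genes. Replicate 4 had only hbbe3 above the array median, at 87.5. Its epb41b, at 21.5, and cahz, at 15.0, were still above their medians over the 72 arrays, 5.81 and 6.44.

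**Figure D2:**
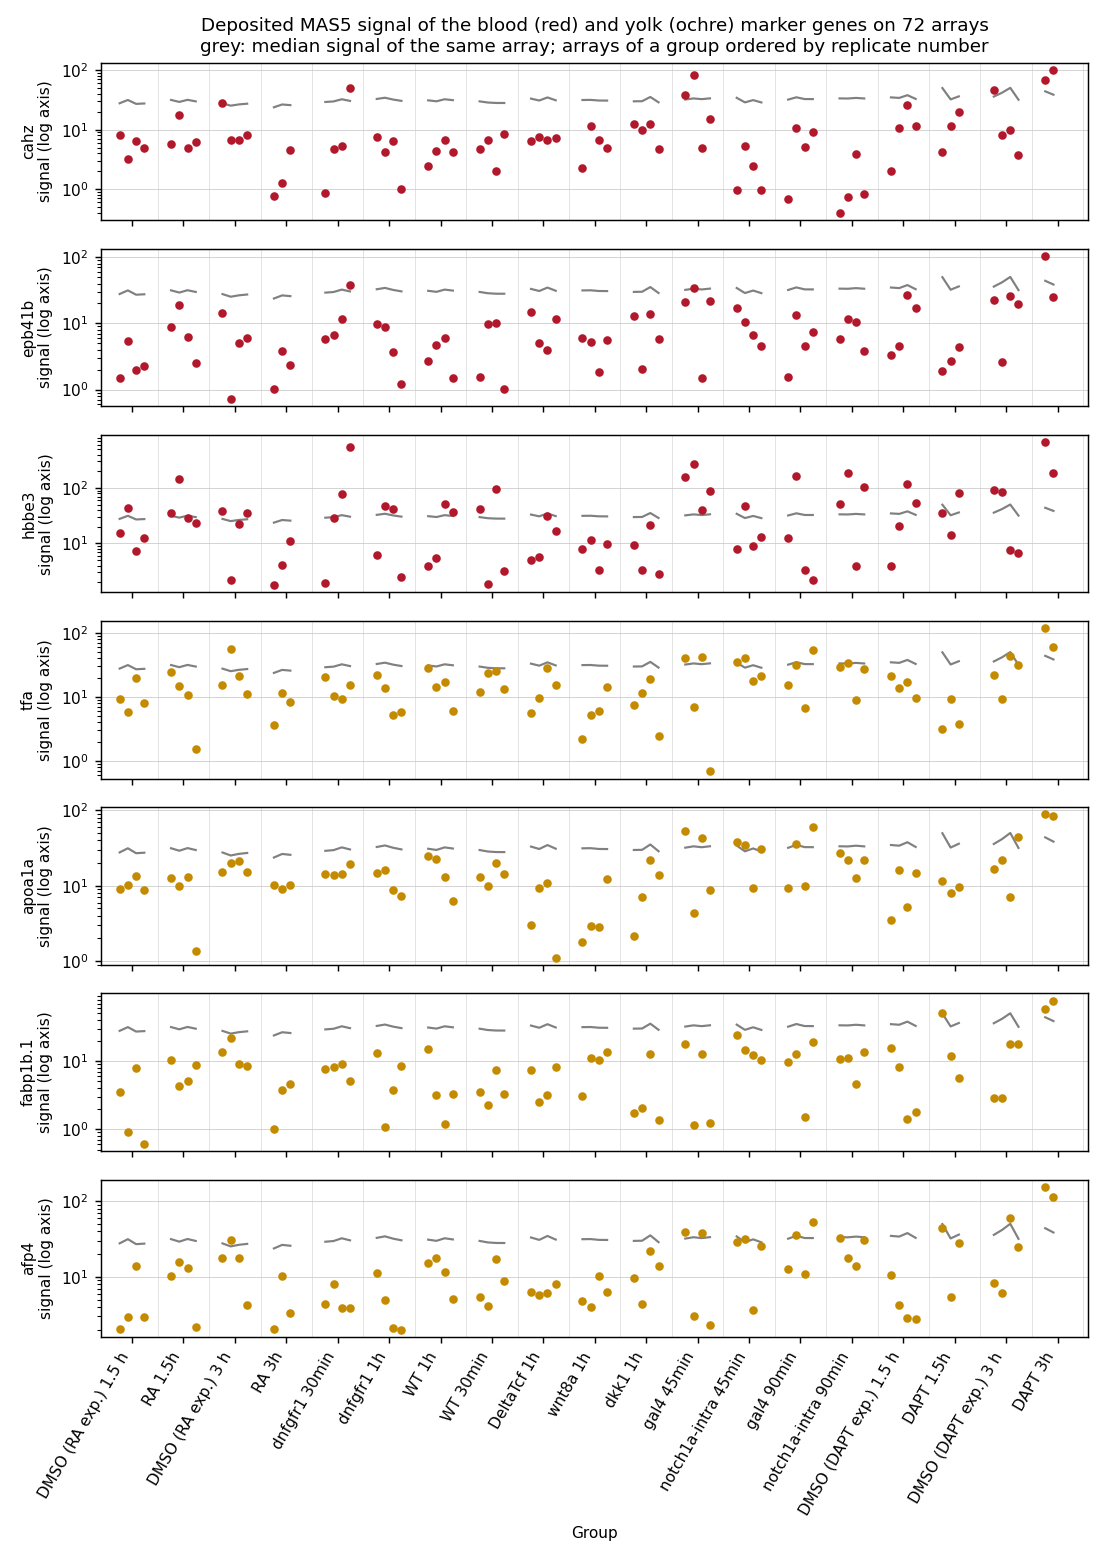
Deposited MAS5 signal (log axis) of each gene on all 72 arrays, by group, with points in the order of the replicate number and the median signal of the same array as a grey line. Blood genes (red) and yolk genes (ochre) lie below the line on most arrays; both arrays of DAPT at 3 h lie above it for 6 of the 7 genes, and 1 of them for epb41b.

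Among the blood genes, cahz encodes a carbonic anhydrase of red cells, which interconverts carbon dioxide and bicarbonate. Its signal ran from 0.400 to 100.6 over the 72 arrays, with a median of 6.44, and exceeded the array median on 7. On the log2 scale its group mean was highest in DAPT at 3 h (6.51 ± 0.45, SD, n = 2), then gal4 at 45 min (5.42 ± 0.95, SD, n = 4), and between 4.12 and 4.88 in the other 17 groups. No group was separate from its neighbour in that order.

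The gene epb41b encodes a band 4.1 protein of the red-cell membrane skeleton. It ranged from 0.717 to 104 with a median of 5.81 and exceeded the array median on 3 arrays, which were 1 each of DAPT at 3 h, dnfgfr1 at 30 min and gal4 at 45 min. Its highest group means were 5.97 ± 1.21 (SD, n = 2) in DAPT at 3 h and 5.05 ± 0.62 (SD, n = 4) in gal4 at 45 min, and again no neighbouring groups were separate.

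The embryonic beta globin gene hbbe3 ranged from 1.77 to 668 with a median of 20.9, and exceeded the array median on 29 arrays. Its group means were 8.57 ± 1.28 (SD, n = 2) in DAPT at 3 h, 6.98 ± 1.03 in gal4 at 45 min and 6.34 ± 2.07 in dnfgfr1 at 30 min (SD, n = 4 each), and lowest in RA at 3 h at 4.52 ± 0.33 (SD, n = 3). No neighbouring groups were separate. Zebrafish embryonic globin genes are near-identical in sequence, and whether this probe set detects more than one of them was not tested.

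Of the yolk genes, tfa encodes transferrin, the iron carrier of plasma. Its signal ran from 0.681 to 118.5, with a median of 14.4, and exceeded the array median on 9 arrays. DAPT at 3 h (6.58 ± 0.61, SD, n = 2) was separate from the next group, notch1a-intra at 45 min (5.50 ± 0.33, SD, n = 4), and the lowest mean was in DAPT at 1.5 h (4.37 ± 0.27, SD, n = 3).

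For apoa1a, which encodes the main protein of high-density lipoprotein, the range was 1.12 to 88.5 with a median of 12.98, and 10 arrays exceeded the array median. The mean of DAPT at 3 h was 6.60 ± 0.02 (SD, n = 2), separate from notch1a-intra at 45 min at 5.45 ± 0.49 (SD, n = 4). DeltaTcf and wnt8a were lowest, at 4.36 ± 0.25 and 4.36 ± 0.32 (SD, n = 4 each).

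The fatty acid binding protein gene fabp1b.1 ranged from 0.610 to 77.2 with a median of 8.04. It exceeded the array median on 3 arrays, both of DAPT at 3 h and replicate 1 of DAPT at 1.5 h. The means were 6.24 ± 0.35 (SD, n = 2) in DAPT at 3 h and 5.01 ± 0.20 (SD, n = 4) in notch1a-intra at 45 min, whose arrays did not overlap.

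The gene afp4 encodes a type IV antifreeze protein, an apolipoprotein-like plasma protein that in zebrafish embryos marks the yolk syncytial layer. It ranged from 1.995 to 155 with a median of 10.02 and exceeded the array median on 9 arrays. Its means were 7.20 ± 0.28 (SD, n = 2) in DAPT at 3 h and 5.33 ± 0.61 (SD, n = 4) in gal4 at 90 min, and the arrays of these groups did not overlap. Of the 18 neighbouring pairs of groups, 1 was separate for tfa, 2 for apoa1a, 1 for fabp1b.1 and 1 for afp4.

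How the genes varied together between arrays of the same group was described by correlating each array's deviation from its group mean over the 72 arrays, for 21 pairs. The 3 blood pairs had Pearson's r of 0.52 to 0.53 (permutation test, two-sided, adjusted p = 0.00133 to 0.00528 over the 21 pairs) and Spearman's rho of 0.36 to 0.47 (adjusted p = 0.00413 to 0.0211). The 6 yolk pairs had r of 0.46 to 0.71 (permutation test, adjusted p = 0.00021 to 0.0059) and rho of 0.37 to 0.67 (adjusted p = 0.000105 to 0.0177). The 2 kinds did not rise together in this measure: in 12 pairs of a blood with a yolk gene r ran from -0.31 to 0.11. Of those 12 only hbbe3 with fabp1b.1 passed (r = -0.31, permutation test, adjusted p = 0.0383, rho = -0.38, adjusted p = 0.0177), and it did not pass without quantile normalization (adjusted p = 0.0877) or with a pseudocount of 1 (adjusted p = 0.0727).

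Without the 2 arrays farthest from the median of the first gene of each pair, r was 0.41 to 0.45 for blood pairs and 0.39 to 0.67 for yolk pairs. Within the 28 arrays of the drug experiments the blood pairs had r of 0.35 to 0.58 and the yolk pairs 0.13 to 0.66. Within the 44 heat shock arrays they had 0.52 to 0.69 and 0.64 to 0.88. Pairs of a blood with a yolk gene had r of -0.75 (hbbe3 with fabp1b.1) to 0.28 within the drug arrays and -0.17 to 0.11 within the heat shock arrays. The weak yolk pairs among the drug arrays were apoa1a with fabp1b.1 (0.13) and apoa1a with afp4 (0.15). Measures of array quality were set beside the genes without a test. Over the 72 arrays, r between the deviations and the 3'/5' ratios of gapdh and acta1 or the array median lay between -0.30 and 0.17. The value of -0.30 was that of hbbe3 with the acta1 ratio, which also depends on the level of that muscle actin gene.

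**Figure D3:**
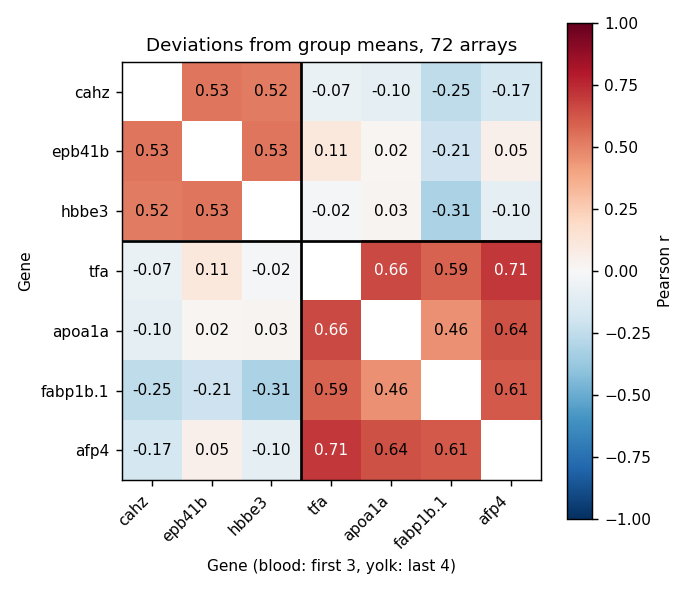
Pearson's r between the deviations of each pair of genes from their group means over 72 arrays, with lines dividing the 3 blood genes from the 4 yolk genes. Pairs within a kind run from 0.46 to 0.71 and pairs across kinds from -0.31 to 0.11.

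The genes whose deviations were most like those of each blood gene included other genes of red and white blood cells. For hbbe3, out of 6489 genes, they were cpox (r = 0.83), which acts in heme synthesis, the embryonic alpha globin gene hbae3 (0.83), the transcription factor gene cebpa (0.76), drl (0.74), a zinc finger gene of early blood, and alas2 (0.73), which starts heme synthesis in red cells. For cahz they were gpd1b (0.62), alas2 (0.60), si:ch211-212o1.2 (0.51), csrnp1a (0.49) and adgrl4 (0.48). For epb41b they were spi1b (0.57), a regulator of white cells, csrnp1a (0.55), cldn3c (0.54), alas2 (0.54) and smchd1 (0.53). The arrays with all 3 blood genes and no yolk gene above the array median were also high for hbae3. Its signal was 983 on dnfgfr1 at 30 min replicate 4 and 1242 on gal4 at 45 min replicate 2. The other arrays of those groups had 16.8 to 98.3 and 143 to 459. As hbae3 was picked here for its likeness to hbbe3 on these arrays, its values restate the choice and add no support.

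Among the genes most like the yolk genes, bhmt was listed for tfa, afp4 and fabp1b.1, and apobb.1 for tfa and afp4. For tfa the most like were apobb.1 (r = 0.68), which encodes the core protein of yolk-derived lipoprotein, bhmt (0.61), a betaine-homocysteine methyltransferase gene, sf3b6 (0.57), cfap20 (0.56) and ap4b1 (0.55). For afp4 they were bhmt (0.64), apobb.1 (0.60), gtf3c5 (0.59), cfap20 (0.56) and ppwd1 (0.54). For fabp1b.1 they were gabpb2a (0.60), mrps30 (0.56), smc1al (0.56), bhmt (0.54) and metap2b (0.54), and for apoa1a dpm1 (0.65), tfip11 (0.57), eif2b3 (0.55), rad18 (0.54) and znf207b (0.54). Apart from bhmt (61 arrays), apobb.1 (7) and ap4b1 (3), these genes most like the yolk genes all exceeded the array median on 72 of 72 arrays. Within gal4 at 45 min bhmt was at 147 and 141 on replicates 1 and 3, the arrays with yolk genes, and at 14.7 and 16.4 on replicates 2 and 4. All these genes were picked for their likeness on these arrays, so their values there restate the choice. The correlations are descriptions over arrays that share depth of hybridisation and scaling.

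The spread between arrays of a group was above the median of all probe sets for each of the 7 genes. The residual SD on the log2 scale was 1.05 for hbbe3, above 99.5% of the 10126 probe sets tested, and 0.46 for tfa, 0.45 for afp4, 0.43 for cahz, 0.41 for apoa1a, 0.39 for epb41b and 0.33 for fabp1b.1, which exceeded 67.9%. Over all probe sets tested the median was 0.28, and over the dimmer 5063 it was 0.32. Among the dimmer probe sets fabp1b.1 stood at percentile 56.6, epb41b at 76.6, and the other 5 genes between 81.2 and 99.5. The median percentile of the 7 genes was 87.3 and fell to 50.6 with a pseudocount of 64, which compresses dim signals.

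All 7 genes rose in DAPT at 3 h against its DMSO controls, by 2.22 to 8.10-fold, and no other comparison moved more than 1 of them. Of the probe sets tested, 5.35% were called there at an adjusted p under 0.05 (limma, Benjamini-Hochberg) and 2.27% were called higher. Because the 7 genes were chosen with earlier results of these data known, their count beside these shares is a description and not independent support. The arrays of the groups did not overlap for 6 of the 7, against 9.52% of all probe sets not overlapping with DAPT higher. More cells of a type and more RNA per cell cannot be told apart in such dissected tissue. The filter bears on 2 of the genes: fabp1b.1 passed it through 3 arrays that include both of DAPT at 3 h, and epb41b through 3 that include 1 of them.

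Among the blood genes, cahz was at 67 and 100.6 in the 2 DAPT arrays and at 45.7, 8.10, 9.70 and 3.8 in the 4 DMSO arrays. Both DAPT arrays lay above all controls, and cahz rose 3.26-fold (log2 1.71 ± 0.36, SE, adjusted p = 0.00222). For hbbe3 the DAPT arrays were at 668 and 185 and the DMSO arrays at 93.0, 83.9, 7.60 and 6.70. It rose 8.10-fold (3.02 ± 0.91, SE, adjusted p = 0.0362), with both DAPT arrays above all controls and replicate 1 well above replicate 2. For epb41b the DAPT arrays were at 104 and 24.9 and the DMSO arrays at 22.5, 2.60, 25.6 and 19.5. The groups overlapped, since replicate 2 of DAPT lay below 1 control, and the rise was 2.22-fold (1.15 ± 0.33, SE, adjusted p = 0.0272).

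The yolk genes were separate from the controls in both DAPT arrays. For tfa the DAPT arrays were at 118.5 and 59.7 and the DMSO arrays at 22.1, 9.30, 43.9 and 31.7, a rise of 2.69-fold (log2 1.43 ± 0.38, SE, adjusted p = 0.0168). For apoa1a they were at 88.5 and 84.9 against 16.8, 21.7, 7.10 and 44.1, a rise of 2.96-fold (1.57 ± 0.35, SE, adjusted p = 0.00303). The 2 DAPT arrays nearly coincided for this gene, and the highest control was replicate 4. For fabp1b.1 they were at 58.4 and 77.2 against 2.90, 2.90, 18 and 17.5, a rise of 3.27-fold (1.71 ± 0.29, SE, adjusted p = 8.49e-05). For afp4 they were at 155 and 114 against 8.20, 6.20, 60.5 and 24.8, a rise of 4.49-fold (2.17 ± 0.38, SE, adjusted p = 0.000152).

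**Figure D4:**
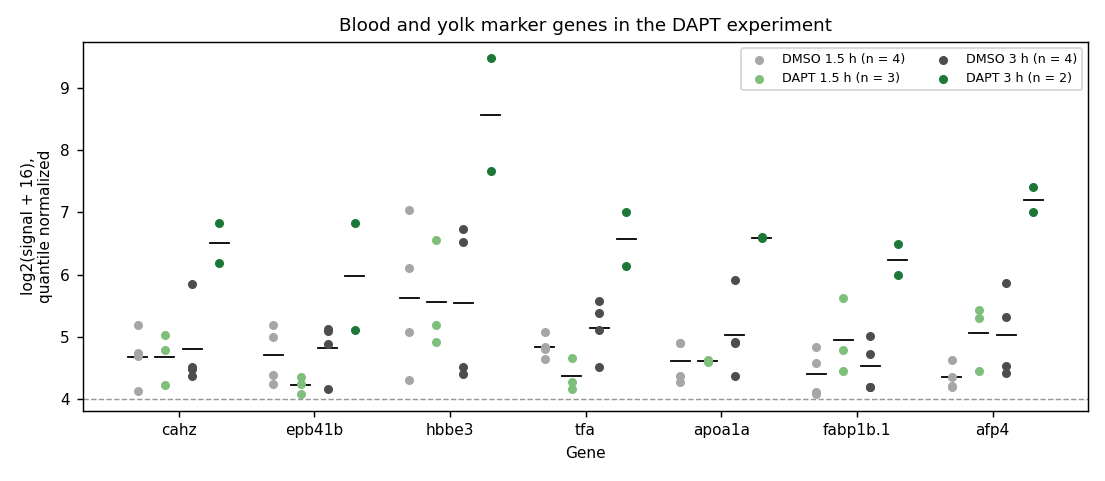
Level of each gene, log2(signal + 16) after quantile normalization, on every array of the DAPT experiment, with points for arrays, short lines for group means and a dashed line at 4, the bottom of the scale. The 2 arrays of DAPT at 3 h lie above all 4 DMSO arrays of the same time for 6 genes and overlap them for epb41b; the groups at 1.5 h overlap for all 7.

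The result rests on 2 arrays. Replicate 1 stood well above replicate 2 for epb41b, hbbe3 and tfa, and less far above it for afp4. For apoa1a the arrays nearly coincided, and for cahz and fabp1b.1 replicate 2 was the higher. With either array left out the group has 1 array, which is assumed to vary like the other groups. Without replicate 1 of DAPT at 3 h, cahz, fabp1b.1 and afp4 were still called, and epb41b had a difference of 0.30 (limma, adjusted p = 0.790). Without replicate 2, 6 genes were still called and cahz had an adjusted p of 0.0565. Leaving out single DMSO arrays left 5 to 7 calls. When these 2 groups were fitted by themselves only afp4 was called (adjusted p = 0.0317). Calls over all probe sets also became far fewer in that fit and without DAPT replicate 1, as listed under processing below. The loss of calls was therefore not particular to the 7 genes.

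The DMSO arrays of that experiment at 3 h were uneven in their own right. Replicates 1 and 2 had hbbe3 above the array median (93.0 and 83.9) with afp4 at 8.20 and 6.20, while replicates 3 and 4 had hbbe3 at 7.60 and 6.70 with afp4 at 60.5 and 24.8. The yolk genes tfa and fabp1b.1 also stood higher on replicates 3 and 4. The genes cahz (45.7, 8.10, 9.70 and 3.8 on replicates 1 to 4), epb41b (22.5, 2.60, 25.6 and 19.5) and apoa1a (16.8, 21.7, 7.10 and 44.1) did not divide in this way. The heme gene cpox was at 517 and 385 against 50.9 and 52.9, and bhmt at 43.1 and 25.2 against 144 and 152. Both were picked for their likeness to hbbe3 and to afp4 on these arrays, so their values describe the likeness and add no support.

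Other genes of the 2 tissues were read on the same arrays from longer lists. Of 15 further blood genes on the array 9 were tested, and 0 were called in DAPT at 3 h (limma; 3 had an unadjusted p under 0.05: alas2, hbae3 and mych). Their differences ran from -0.71 for mych to 2.70 for hbae3, with a median of 1.23 against -0.00 over all probe sets. The blood regulator gata1a was at 508 and 55.0 in the DAPT arrays, hbae3 at 1027 and 202, and alas2 at 82.9 and 46.8. The summed signal of the 15 genes was 1254 to 4074 in DAPT at 3 h and 652 to 2282 in its controls, so the arrays overlapped. Over the 72 arrays, klf1, slc4a1a and fech exceeded the array median on 0, sptb and blvrb on 1, hbbe2 on 2, nfe2 on 7 and alas2 on 10. The other genes did so more often: hbae3 on 42, gata1a on 43, drl on 53, tal1 on 55, lmo2 on 65, and urod and mych on 72.

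Of 20 further yolk and liver genes 8 were tested, and again 0 were called (limma; apoa2 and apobb.1 had an unadjusted p under 0.05). Their median difference was 0.14. The apobb.1 signal was 96.8 and 51.1 in the DAPT arrays against 21.2 to 60.3 in the controls (log2 difference 0.91 ± 0.32, SE, adjusted p = 0.0829), and apoa2 had a difference of 0.80 (adjusted p = 0.137). The gene bhmt, which is not in this list, was at 572 and 420, above its 4 controls at 25.2 to 152. It was picked for its likeness to tfa, afp4 and fabp1b.1 on these arrays, so its values add no support. The summed signal of the 20 genes was 6121 to 7213 against 4902 to 6601. Most of it came from apoc1 (4145 and 3786 in the DAPT arrays) and apoeb (2612 and 2049), so it says little about the dimmer genes. Both exceeded the array median on 72 of 72 arrays. Of the others, apoa2 did so on 9, apobb.1 on 7, apoa4a and slc40a1 on 5, gata5 on 4 and apoc2 on 3. The rest, with vtg2, mttp, apoba, fgb, hnf4a and mxtx2 among them, did so on 0. Of 11 PSM genes none rose in the DAPT arrays, and msgn1 (-0.38), tbx16 (-1.16), tbx16l (-1.04) and her7 (-2.16), a Notch target of the segmentation clock, fell. Their summed signal was 10036 to 11205 against 13917 to 16064. The 3'/5' ratio of gapdh, a measure of RNA quality, was -0.26 and 0.54 on the log2 scale in the DAPT arrays against 0.05 to 0.50 in the controls. No gene of the muscle, notochord, myeloid, endothelial, hatching gland, epidermis, neural or pronephros lists was called (limma; myod1, myf5 and cdh17 had an unadjusted p under 0.05). The muscle sum lay below all controls, at 671 to 735 against 749 to 2203, and the pronephros sum was 38.9 to 442 against 9.30 to 109.6, with cdh17, a pronephros gene, at a difference of 1.29 (adjusted p = 0.0694). The sums of the other 6 lists overlapped. The part of tissue make-up and RNA quality in the changes of the 7 genes was not tested.

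At 1.5 h none of the 7 genes was called in DAPT (limma; fabp1b.1 and afp4 had an unadjusted p under 0.05), with 4.09% of all probe sets called. For fabp1b.1 the DAPT arrays were at 51.6, 11.7 and 5.60 and the DMSO arrays at 15.7, 8.10, 1.40 and 1.80, a difference of 0.55 (adjusted p = 0.224). For afp4 they were at 44.2, 5.40 and 28.3 against 10.5, 4.20, 2.90 and 2.80, a difference of 0.71 (adjusted p = 0.234). The effect at 3 h exceeded that at 1.5 h for 4 genes, where 3.96% of all probe sets were called in this contrast and 1.78% called higher: tfa by 1.90 (adjusted p = 0.0241), cahz by 1.71 (adjusted p = 0.0322), epb41b by 1.63 (adjusted p = 0.0242) and apoa1a by 1.57 (adjusted p = 0.0385). The contrast for hbbe3 was 3.09, for afp4 1.45 and for fabp1b.1 1.15, with adjusted p of 0.136, 0.0834 and 0.0686.

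Notch activation was followed through notch1a-intra against gal4. At 45 min cahz fell, and 1 of the 7 genes called stood against 4.09% of all probe sets called and 1.96% called lower. The cahz signal was 0.962, 5.24, 2.44 and 0.967 in the notch1a-intra arrays and 38.6, 83.1, 4.86 and 15.0 in the gal4 arrays. The groups overlapped at gal4 replicate 3, and the fall was 2.27-fold (log2 -1.19 ± 0.30, SE, limma, adjusted p = 0.0109). It did not pass without gal4 replicate 2 (-0.80, limma, adjusted p = 0.128), on which all 3 blood genes and no yolk gene exceeded the array median. Nor did it pass when gal4 and notch1a-intra at 45 min were fitted without the other 17 groups (adjusted p = 0.242). Same-numbered arrays of these groups deviated together, and with the replicate number as a block cahz did not pass (-1.19, adjusted p = 0.119) while hbbe3 did (-1.92, adjusted p = 0.0259). Without the 2 notch1a-intra arrays whose notch1a signal was near gal4, the cahz difference was -1.27 ± 0.37 (SE, adjusted p = 0.0159).

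The other blood genes had the same direction at 45 min. The hbbe3 signal was 8.06, 48.1, 9.11 and 13.2 in notch1a-intra and 159, 274, 39.6 and 87.5 in gal4, a difference of -1.92 ± 0.74 (SE, adjusted p = 0.123) without the block. The 9 further blood genes tested had differences of -2.59 to -0.20, and 0 were called (limma; tal1, alas2, hbae3 and drl had an unadjusted p under 0.05). Their list summed to 431 to 1727 in notch1a-intra and 1944 to 4364 in gal4, so its arrays did not overlap. The 3'/5' ratio of gapdh also differed, at 2.62 to 3.33 in notch1a-intra and 3.35 to 3.86 in gal4 on the log2 scale. That of acta1 differed more and the other way, at 2.12 to 3.13 in notch1a-intra and 0.41 to 0.78 in gal4. Of 6 muscle genes myod1 and acta1a rose, and of 3 notochord genes tested ntd5 rose. The muscle list summed to 2861 to 3886 in notch1a-intra against 1257 to 1781, the notochord list to 1725 to 2433 against 102 to 1480, the myeloid list to 39.7 to 86 against 94.2 to 135, and the endothelial list to 21.1 to 26.0 against 30.0 to 177, all without overlap. The list of 20 further yolk and liver genes, whose brightest were apoc1 and apoeb, also lay lower without overlap, at 5496 to 6317 against 6402 to 6998. Sums of the PSM, epidermis, hatching gland, neural and pronephros lists overlapped. The part of blood and other tissue content and of RNA quality in the fall of cahz was not tested. The 4 yolk genes were not called, with differences of 0.23 to 0.45. At 90 min none of the 7 was called (limma; 0 at an unadjusted p under 0.05; 6.87% of all probe sets), with differences from -0.33 for cahz to 0.99 for hbbe3.

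In RA at 3 h all 7 genes had lower means than in DMSO, by 0.27 for epb41b to 0.83 for hbbe3 on the log2 scale, but none was called, while 3.68% of all probe sets were (limma; cahz, tfa and fabp1b.1 had an unadjusted p under 0.05). Arrays of the 2 groups did not overlap for cahz, apoa1a and fabp1b.1, against 7.75% of all probe sets not overlapping with RA lower. The fabp1b.1 signal was 1.01, 3.81 and 4.59 in RA and 13.4, 21.7, 8.93 and 8.30 in DMSO, a difference of -0.66 ± 0.25 (SE, adjusted p = 0.190). For cahz it was 0.762, 1.26 and 4.48 against 28.5, 6.68, 6.61 and 8.20, a difference of -0.65 ± 0.32 (SE, adjusted p = 0.439). Of 8 further yolk and liver genes tested 1, apobb.1, was called lower in RA at 3 h, and their median difference was -0.22. Of 9 further blood genes 0 were called. At 1.5 h of RA none was called (0 at an unadjusted p under 0.05; 4.34% of all probe sets), with differences of -0.12 to 0.82.

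No gene of the 7 was called in dnfgfr1 or in the Wnt groups. The comparisons of DeltaTcf, dkk1, wnt8a and dnfgfr1 at 1 h share the 4 wild-type arrays of that time, so their values are not independent of each other. In dnfgfr1 the differences ran from -0.27 to 1.05 at 30 min (3% of all probe sets called) and from -0.46 to 0.13 at 1 h (3.42%), with 0 at an unadjusted p under 0.05 at either time. The widest of them, hbbe3 at 30 min, rested on values of 1.94, 28.8, 76.9 and 536 against 41.2, 1.89, 95.7 and 3.22 in wild type, which overlapped (1.05 ± 0.74, SE, limma, adjusted p = 0.596).

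For apoa1a the Wnt arrays came nearest to a call. Its signal was 25.1, 22.6, 13.2 and 6.29 in wild type, 3.05, 9.37, 10.97 and 1.12 in DeltaTcf, 1.81, 2.96, 2.80 and 12.3 in wnt8a, and 2.16, 7.12, 22.2 and 13.8 in dkk1. All of these are below the array median, and each group overlapped the wild type. The differences were -0.66 ± 0.28 in DeltaTcf (SE, limma, adjusted p = 0.0878), -0.67 ± 0.28 in wnt8a (adjusted p = 0.0985) and -0.34 ± 0.28 in dkk1 (adjusted p = 0.408). With 20.6%, 16.2% and 24.6% of all probe sets called in those comparisons, apoa1a was the only gene of the 7 at an unadjusted p under 0.05 in DeltaTcf and in wnt8a, and none was in dkk1.

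No gene of the 7 was called in the comparisons between control groups that were run. This held for wild type at 1 h against 30 min (4.37% of all probe sets), or between the DMSO groups of the DAPT and RA experiments at 1.5 h (16.8%) and 3 h (28.8%), with 0 at an unadjusted p under 0.05 in each (limma). The largest of these differences in size was 0.49 for hbbe3 between the DMSO groups at 1.5 h. Lists of other tissues did differ between the DMSO groups at 3 h. All 6 epidermis genes tested were called higher in the DAPT experiment, and 5 of 6 muscle genes were called lower. Of 8 further yolk and liver genes 1, apoeb, was called higher, and of 9 further blood genes 0 were called. The gal4 groups at 45 and 90 min were not tested against each other. Their means were 5.42 and 4.45 for cahz and 6.98 and 5.21 for hbbe3. Nor were the DMSO groups of 1 experiment tested between 1.5 h and 3 h. In the contrasts of effects between times for RA, dnfgfr1 and notch1a-intra 0 of the 7 were called (0.721%, 0.375% and 0.691% of all probe sets; 2, 0 and 2 genes at an unadjusted p under 0.05).

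Across all 19 groups the 7 genes each passed the moderated F-test of limma, as did 93.5% of all probe sets. Without DAPT at 3 h, 5 of 7 passed, against 92.8%, and epb41b (adjusted p = 0.0837) and hbbe3 (adjusted p = 0.112) did not. Groups accounted for 45.1% of the variance of hbbe3 to 64.4% of that of afp4, where the median was 65.1% over all probe sets tested and 57.2% over the dimmer 5063.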

How the data were processed

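Posterior PSM from 72 samples was measured on Affymetrix zebrafish arrays. The deposited values are intensity values, MAS5 signals per the submitters' processing notes; the version was not given in the sources used here. Every array had a mean of 150 after trimming 2% at each end, and 13 arrays, all of the DAPT experiment, were rounded to 1 decimal. Symbols came from the platform annotation, updated through Entrez identifiers (10795 probe sets with 1 symbol, 135 with several, 4572 with none; 10711 matched, 1 updated).

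After 115 control probe sets were removed, 16 was added, log2 taken and arrays quantile normalized, because their log2 medians spanned 0.738. Probe sets above the array median on at least 3 arrays were tested (10126). One limma model of 19 group means was used (R 4.3.3, limma 3.58.1, statmod 1.5.0; trend and robust moderation, two-sided, Benjamini-Hochberg within each comparison, threshold 0.05), with 14 comparisons and 4 contrasts between times. Correlations used 100000 permutations within groups (scipy 1.17.1). The method was tested on simulated data with known changes. For arrays their number limits the precision, and no depth applies.

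All 7 genes are named in every comparison that calls them, and otherwise by range or by values chosen after they were seen. The 5 most like genes are those with 1 symbol and the highest r of deviations. Genes and lists were chosen with earlier results of these data known. Same-numbered arrays paired in notch1a-intra at 45 min, where all 4 deviations correlated at 0.21 to 0.31 over probe sets. In DAPT at 3 h the 2 pairs correlated at 0.10 and 0.17. Labels do not say what the numbers share.

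Alternatives were the deposited scaling, median centring, pseudocounts of 1 and 64, no filter, a filter of 36 arrays, only the 2 groups compared, the same with replicate number as a block, and each array left out. Added after the data were seen were notch1a-intra at 45 min without replicates 2 and 4, and the F-test without DAPT at 3 h.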

Additional observations from a re-analysis of the deposited data

Results flagged for a closer look

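Single arrays stood apart from the others of their group of 4 in 12 of 112 checks of a gene within a group, by the gap to the nearest array as a share of the range. Chance gives this in about 5% of groups. Values are log2 levels, with the nearest other array second. Blood genes stood high for cahz in dnfgfr1 at 30 min replicate 4 (6.03 against 4.40), in DMSO for DAPT at 3 h replicate 1 (5.85 against 4.52), in DMSO for RA at 3 h replicate 1 (5.60 against 4.68) and in notch1a-intra at 90 min replicate 3 (4.27 against 4.09). They also did for hbbe3 in RA at 1.5 h replicate 2 (7.29 against 5.69) and for epb41b in DMSO for RA at 1.5 h replicate 2 (4.46 against 4.21).

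Yolk genes stood high for afp4 in DMSO for RA at 1.5 h replicate 3 (5.02 against 4.27), for fabp1b.1 in wild type at 30 min replicate 3 (4.68 against 4.31) and in dkk1 replicate 3 (4.67 against 4.18), and for apoa1a in wnt8a replicate 4 (4.83 against 4.23). For apoa1a, RA at 1.5 h replicate 4 (4.15 against 4.85) and notch1a-intra at 45 min replicate 3 (4.73 against 5.65) stood low. Most of these levels are below the array median, near the bottom of the scale at 4.

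The DAPT effect differed between 3 h and 1.5 h for 4 genes on the log2 scale (limma): tfa by 1.90 (adjusted p = 0.0241), cahz by 1.71 (adjusted p = 0.0322), epb41b by 1.63 (adjusted p = 0.0242) and apoa1a by 1.57 (adjusted p = 0.0385). Of all probe sets, 3.96% were called in this contrast and 1.78% called higher. The group at 3 h held 2 arrays.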

How the results depend on the processing

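No call changed direction under any alternative run. In DAPT at 3 h the count of 7 genes called was 4 with median centring (cahz, apoa1a, fabp1b.1 and afp4), 4 with a pseudocount of 1, 1 in a fit of the compared groups alone and 3 with the replicate block (hbbe3, fabp1b.1 and afp4), and ran from 3 to 7 over single arrays left out, the lowest without DAPT replicate 1; afp4 was called under every alternative that tested it. In notch1a-intra at 45 min the count of 1 was 0 in the groups alone and 0 to 1 over arrays left out. With a pseudocount of 1, apoa1a was called in DeltaTcf (1 gene) and in wnt8a (1 gene), and DeltaTcf ran from 0 to 1 over arrays left out, with 1 without wild-type replicate 4. The count stayed at 0 in the other 10 comparisons. The median percentile of spread was 50.6 with a pseudocount of 64. The correlations of apoa1a with fabp1b.1 (pseudocount 1) and cahz with epb41b (pseudocount 64) fell short of the threshold. The cause of these changes was not tested. Counts over all probe sets were 542 in DAPT at 3 h against 315 with median centring, 78 in the groups alone, 88 with the block and 170 without DAPT replicate 1. They were 414 in DAPT at 1.5 h against 7 and 0, 414 in notch1a-intra at 45 min against 61 and 158, 696 at 90 min against 329 and 297, and 346 in dnfgfr1 at 1 h against 229 and 139, alone and with the block. With the block alone, RA at 1.5 h went from 439 to 277, wild type from 442 to 140 and DMSO at 1.5 h from 1705 to 627. Leaving out 1 array took dnfgfr1 at 30 min from 304 to 201 (replicate 4), notch1a-intra at 45 min to 244 (replicate 3; 1187 without replicates 2 and 4, an alternative added after the data were seen), RA at 1.5 h to 246 or 291 (DMSO replicates 3 and 4), DAPT at 1.5 h to 225 (DAPT replicate 1) or 262 (DMSO replicate 3), wild type to 252 or 229 (replicates 3 and 4 at 1 h) and 228 or 259 (replicates 3 and 4 at 30 min), and notch1a-intra at 90 min to 435 (gal4 replicate 3), 434 or 459 (notch1a-intra replicates 1 and 3). Median centring shifted the median of all probe sets by -0.18 and -0.31 in the DMSO comparisons at 1.5 h and 3 h. Outside notch1a-intra at 45 min, same-numbered arrays also correlated in DAPT at 3 h (r of 0.10 and 0.17). There both DAPT arrays correlated best with the control of their own number, though 2 pairs are a thin basis. In the other comparisons some r lay under 0.1. In the comparisons other than DAPT at 3 h and notch1a-intra at 45 min, the block changed no call. With the filter of 36 arrays none of the 7 genes was tested, so it gave no value.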
